A study of Mus musculus with 4 samples.

Results

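The 10 immediate early genes Fos, Fosb, Jun, Junb, Jund, Egr1, Egr2, Nr4a1, Ier2 and Dusp1 were examined in RNA sequencing of mouse oligodendrocytes, the glial cells that wrap axons of the brain in myelin. The genes were given as a list of symbols, and each was found once by its symbol among the 35869 rows of the deposited table. Cells carrying both O4 and GalC, surface lipids of late precursors and differentiating oligodendrocytes, had been sorted by flow cytometry from cerebral cortex at postnatal day 5. The 4 libraries form 2 groups of 2. The first group, named Zfp488 KO in the labels, came from Zfp488KI/KI mice, which carry a knock-in allele of Zfp488 on both chromosomes, and the second came from control mice labelled WT. They are called KO 1, KO 2, WT 1 and WT 2 here, after the numbers in their titles. What a shared number stands for (a litter, a sort or a day), the design of the allele, the strain, and whether animals were pooled are not stated in the labels. Separate animals are not recorded for libraries of 1 genotype, so p-values cover the spread from library to library, which may be technical.

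Immediate early genes are transcribed within minutes of a stimulus, without new protein synthesis, when kinases such as ERK act on transcription factors already bound at their promoters. Most encode transcription factors. Fos, Fosb, Jun, Junb and Jund encode the bZIP proteins that pair to form the AP-1 factor, Egr1 and Egr2 encode zinc finger factors, and Nr4a1 encodes an orphan nuclear receptor. Ier2 encodes a nuclear protein and Dusp1 a phosphatase that switches MAP kinases off again. In the brain the family is known for its response to growth factors and neuronal activity, and it is also known to be induced while tissue is dissociated into single cells. Egr2, also called Krox20, is a master regulator of myelination in Schwann cells, the myelinating glia of peripheral nerve.

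Promoter windows from RefSeq (GRCm38.p6) matched 8 of the 10 genes, the exceptions being Egr1 and Ier2. Each window runs from 250 bases before the annotated transcription start to 50 bases after it. The windows of Fos (chr12:85473640-85473939, plus strand), Junb (chr8:84978699-84978998, minus strand) and Dusp1 (chr17:26508423-26508722, minus strand) are shown because these genes differed most between the libraries, together with Egr1. The window of Egr2 (chr10:67537619-67537918, plus strand) is shown because its values went the other way. Capitals mark matches, on either strand, to the core TGACG of the cAMP response element, the full element TGACGTCA, the TATA box TATAAA and the CArG box, the core of the serum response element.

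Fos: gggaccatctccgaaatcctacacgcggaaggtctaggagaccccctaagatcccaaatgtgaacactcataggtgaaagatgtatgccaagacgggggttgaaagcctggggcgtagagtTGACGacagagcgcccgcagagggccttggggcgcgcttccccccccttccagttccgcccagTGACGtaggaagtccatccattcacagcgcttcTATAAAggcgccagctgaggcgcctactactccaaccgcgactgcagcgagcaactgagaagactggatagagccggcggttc

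Junb: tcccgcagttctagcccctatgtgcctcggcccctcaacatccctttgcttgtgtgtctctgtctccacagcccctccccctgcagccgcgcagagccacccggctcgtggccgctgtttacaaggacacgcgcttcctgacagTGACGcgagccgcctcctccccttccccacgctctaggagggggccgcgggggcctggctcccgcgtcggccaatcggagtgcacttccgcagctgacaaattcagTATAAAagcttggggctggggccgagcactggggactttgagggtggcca

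Dusp1: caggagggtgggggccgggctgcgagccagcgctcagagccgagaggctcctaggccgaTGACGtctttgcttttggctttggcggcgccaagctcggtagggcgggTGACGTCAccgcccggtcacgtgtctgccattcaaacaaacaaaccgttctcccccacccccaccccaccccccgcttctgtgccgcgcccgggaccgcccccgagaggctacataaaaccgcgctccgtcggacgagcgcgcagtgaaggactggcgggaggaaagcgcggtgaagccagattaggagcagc

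Egr2: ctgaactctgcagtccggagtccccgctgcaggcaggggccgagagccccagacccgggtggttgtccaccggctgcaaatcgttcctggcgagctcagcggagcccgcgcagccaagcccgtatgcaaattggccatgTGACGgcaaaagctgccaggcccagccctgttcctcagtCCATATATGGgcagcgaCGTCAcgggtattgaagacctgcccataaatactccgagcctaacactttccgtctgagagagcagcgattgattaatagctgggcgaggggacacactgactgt

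The core TGACG was found in at least 1 window of 6 of the 8 genes (Fos, Fosb, Junb, Dusp1, Egr2 and Nr4a1), and in 20.8% of 32851 windows of all genes. Fos, Egr2 and Dusp1 carried it at 2 places each in the windows shown, and the second place in Dusp1 lies within the full element. The full element TGACGTCA, which holds the core on both strands, was found in the window of Dusp1 alone among the 8 genes and in 1.79% of all windows. Fos and Junb held the letters of the TATA box, as did 13.6% of all windows. These letters lay at bases -33 to -28 from the annotated start in Fos. In Junb they lay at bases 1 to 6, so not before the start used for its window. A CArG box was found in windows of Egr2 alone, and in 1.63% of all windows. The AP-1 site TGANTCA was found in none of the 8 genes and in 7.81% of all windows, and the EGR site GCGNGGGCG in Fosb and Nr4a1 and in 5.55% of all windows. Egr2 has more than 1 window, and a match describes the letters of a window only.

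Exon numbers varied among the 10 genes. Jun (chr4:95049036-95052222), Junb (chr8:84976909-84978748), Jund (chr8:70697739-70700616) and Ier2 (chr8:84661331-84662852) have a single exon in the annotated main transcript (GENCODE M21, GRCm38). Fos (chr12:85473890-85477274), Fosb (chr7:19302696-19310118) and Dusp1 (chr17:26505591-26508472) have 4 exons, Egr1 and Egr2 (chr10:67534469-67542188) have 2, and Nr4a1 (chr15:101253902-101274795) has 8. Many immediate early transcripts are short-lived through AU-rich elements in the 3′ UTR. The pentamer ATTTA of such elements stood at a median of 2.86 per kb of 3′ UTR in the 10 genes, against a median of 1.26 per kb over 20693 genes with at least 50 bases of 3′ UTR. It was densest in Dusp1 (5.77 per kb), Nr4a1 (5.50 per kb) and Fos (4.89 per kb), and absent from Ier2. The longer element TTATTTATT was found in Fos and Dusp1, and in 7.68% of all genes.

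Values are FPKM, read fragments scaled to transcript length and to the mapped fragments of the library, and they sum to between 311846 and 341145 per library. Read totals are unknown, but the lowest values fell on steps of single reads. By these steps 1 FPKM on a transcript of 1 kb stood for about 39.9 reads in KO 1 and 38.6 reads in KO 2, against 37.2 reads in WT 1 and 44.3 reads in WT 2. The markers of the sorted cells were present: Olig1, a factor of the oligodendrocyte lineage, was at 1456 and 1487 FPKM in KO 1 and KO 2, against 1249 and 1392 FPKM in WT 1 and WT 2. Mbp, a structural protein of myelin, was at 65.0 and 29.6 FPKM in KO, against 103 and 74.1 FPKM in WT. Zfp488 itself was at 4.82 and 4.11 FPKM in KO, against 6.61 and 5.29 FPKM in WT, a difference that did not pass (log2 fold change -0.34, SE 0.33; limma adjusted p = 0.95). It checks the labels weakly, since the part of the gene that the allele changes is not given. The libraries numbered 2 stood apart from those numbered 1 in cell type markers. The 12 endothelial and mural cell markers summed to 76.2 FPKM in KO 2 and 84.6 FPKM in WT 2, against 9.37 FPKM in KO 1 and 0.454 FPKM in WT 1, and KO minus WT values of the tested members are therefore also given within each number.

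**Figure D1:**
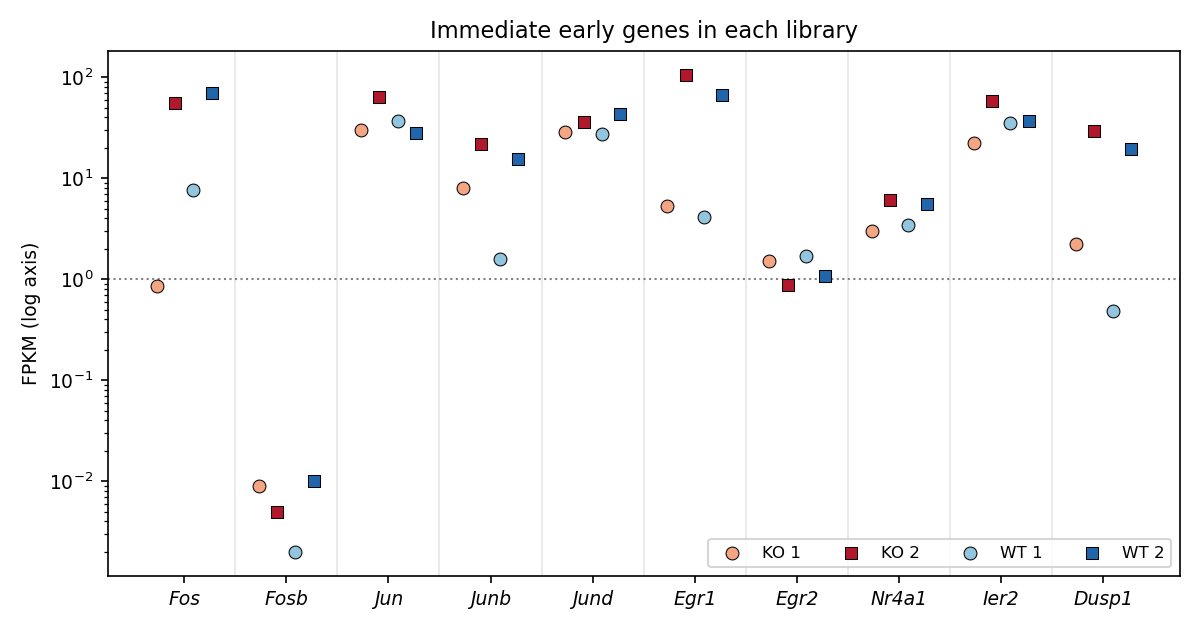
FPKM of each immediate early gene (log axis) in KO 1, KO 2, WT 1 and WT 2, 1 point per library, with circles for libraries numbered 1 and squares for those numbered 2. The dotted line marks 1 FPKM. Both squares lie above both circles for Fos, Junb, Jund, Egr1, Nr4a1, Ier2 and Dusp1. Fosb lies at or under 0.01 FPKM throughout.

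Between the genotypes, no member of the list separated. The filter on low values (at least 1 FPKM in at least 2 libraries) passed 9 members. Of these, 0 had both KO libraries above both WT libraries and 0 had both below. Over the 10754 rows tested 16.6% were above and 18.3% below. The counts of 0 were nearly fixed in advance. A gene with both libraries numbered 2 above, or below, both numbered 1 cannot separate by genotype. That order held for 7 members (above) and 1 member (below), and the list was proposed with the number difference known. By limma 0 of the 9 passed, as did 0% of all rows, with 608 rows at an unadjusted p under 0.05. The smallest adjusted p among the 9 was 0.949. The median of their log2 fold changes (KO over WT) was 0.0038, beside a median of 0.000081 over all rows. Fosb, the member left out by the filter, was listed at 0.009 and 0.005 FPKM in KO, against 0.002 and 0.01 FPKM in WT, which is about 1.7 reads at most in any library. The larger differences lay between the libraries numbered 2 and those numbered 1 within each genotype.

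Fos, which pairs with Jun proteins to form AP-1, was at 0.862 and 54.8 FPKM in KO 1 and KO 2, against 7.71 and 70.2 FPKM in WT 1 and WT 2. Each genotype thus held 1 library with high Fos and 1 with low Fos, and the groups overlapped. KO 2 was 63.6 times KO 1, and WT 2 was 9.11 times WT 1. The lowest value, that of KO 1, still stood for about 73 reads. On the log2(FPKM + 1) scale, on which all differences below are given and which understates those of low genes, KO differed from WT by -1.29 (SE 1.84; limma adjusted p = 0.984). Within libraries numbered 1 the difference was -2.23, and within those numbered 2 it was -0.35. Both had the same sign, but leaving out WT 2 (0.23) or KO 1 (1.16) turned it.

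Jun and its relatives differed less. Jun, the main partner of Fos, was at 29.7 and 63.2 FPKM in KO, against 37.0 and 27.9 FPKM in WT. KO 2 stood alone here, and the other 3 libraries lay within 27.9 and 37.0 FPKM. KO differed from WT by -0.31 within number 1 and by 1.15 within number 2. Junb, a Jun protein that often restrains the activity of Jun, was at 7.95 and 22.0 FPKM in KO, against 1.58 and 15.4 FPKM in WT. Its KO value was above its WT value within both numbers (1.80 and 0.48 for numbers 1 and 2), but KO 1 lay below WT 2, so the groups overlapped (log2 fold change 1.14, SE 0.99; limma adjusted p = 0.949). Without WT 1 the Junb difference was -0.20. Jund, which unlike the others is broadly expressed without a stimulus, was at 28.8 and 36.3 FPKM in KO, against 27.6 and 43.3 FPKM in WT. Its highest library was 1.57 times its lowest, the narrowest range of the 10 genes, and KO differed from WT by 0.059 within number 1 and by -0.25 within number 2.

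Egr1, a zinc finger factor induced by ERK signalling, was at 5.29 and 106 FPKM in KO, against 4.15 and 66.0 FPKM in WT. In KO 2 it stood above 93.6% of all rows tested, and in KO 1 above 46.4%. WT 2 and WT 1 stood above 89.0% and 42.2%. KO exceeded WT by 0.29 within number 1 and by 0.67 within number 2 (log2 fold change 0.48, SE 1.76; limma adjusted p = 0.995). Without WT 1 that value was -1.37, and without KO 2 it was -1.56. Egr2 was low, at 1.52 and 0.879 FPKM in KO, against 1.69 and 1.06 FPKM in WT, or about 100 to 190 reads. It was the member with lower values in both libraries numbered 2, and KO differed from WT by -0.094 within number 1 and by -0.13 within number 2. Nr4a1, which responds to calcium and cAMP signals, was at 3.01 and 6.06 FPKM in KO, against 3.42 and 5.55 FPKM in WT, and its KO and WT values differed by -0.14 and 0.11 within numbers 1 and 2.

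Dusp1, the phosphatase of the list, was at 2.22 and 29.5 FPKM in KO, against 0.484 and 19.2 FPKM in WT. Both libraries numbered 2 were far above both numbered 1, and the WT 1 value rested on about 36 reads. KO exceeded WT by 1.12 within number 1 and by 0.59 within number 2 (log2 fold change 0.85, SE 1.60; limma adjusted p = 0.989), but without WT 1 the difference was -1.03 and without KO 2 it was -0.77. Ier2 was at 22.1 and 57.4 FPKM in KO, against 34.9 and 36.4 FPKM in WT. Its 2 WT libraries were close together, while KO 1 lay below both and KO 2 above both, so its KO and WT values differed by -0.64 within number 1 and by 0.64 within number 2.

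**Figure D2:**
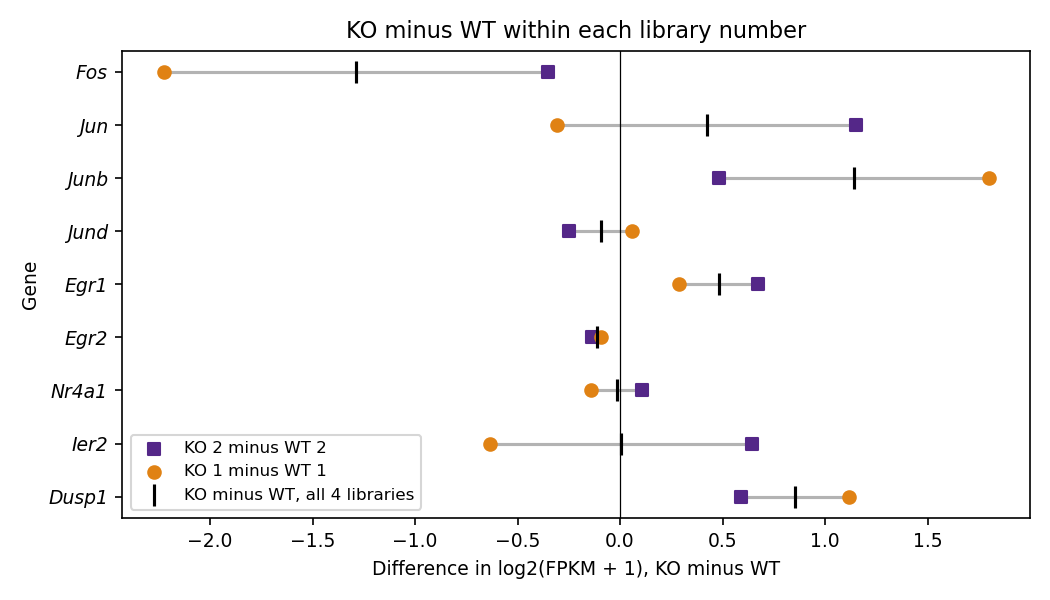
Difference in log2(FPKM + 1), KO minus WT, for the 9 tested members, with a square for KO 2 minus WT 2, a circle for KO 1 minus WT 1 and a bar for all 4 libraries. Fos (-2.23 and -0.35) and Egr2 lie below 0 within both numbers and Junb, Egr1 and Dusp1 above it, while Jun, Jund, Nr4a1 and Ier2 change sign.

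Across the 9 tested members KO was above WT within both numbers for 3 (Junb, Egr1 and Dusp1), below within both for 2 (Fos and Egr2), and of opposite sign for 4. The median KO minus WT difference was -0.094 within number 1 and 0.48 within number 2, beside -0.0011 and -0.014 over all rows tested. Each of these within-number values compares 1 library with 1 and has no replicate check. In 8 of the 9 members the difference between the library numbers was larger in size than the difference between the genotypes, the exception being Jun. In these 8 both libraries numbered 2 lay above, or below, both numbered 1. That order alone makes the number difference the larger, so the count adds no separate result.

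The difference between library numbers was then taken for both genotypes together, by a limma model with genotype and number. The list was proposed with this difference already known, so the values describe these libraries. Of the 9 tested members, 7 had both libraries numbered 2 above both numbered 1 (Fos, Junb, Jund, Egr1, Nr4a1, Ier2 and Dusp1), 1 had both below (Egr2) and 1 overlapped (Jun). Over all rows tested 22.3% were above and 17.2% below. The difference was at least 1 in each genotype for 4 members (Fos, Egr1, Dusp1 and Junb), as it was for 3.7% of all rows. The median of the 9 was 0.70, beside 0.024 over all rows, and it was 1.34 in KO and 0.63 in WT taken alone.

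Egr1 differed by 3.89 (SE 0.25; limma adjusted p = 0.029) between the libraries numbered 2 and those numbered 1, with 4.09 in KO and 3.70 in WT. Dusp1 differed by 3.51 (SE 0.36; limma adjusted p = 0.0454), with 3.24 in KO and 3.77 in WT. These 2 members passed, as did 0.363% of all rows in this direction and 0.0186% in the other. Fos differed by 3.97 (SE 0.48), with 4.91 in KO and 3.03 in WT, and did not pass (limma adjusted p = 0.0556). Junb differed by 2.02 (SE 0.42; limma adjusted p = 0.135), with 1.36 in KO and 2.67 in WT. The calls depended on the settings: the adjusted p of Egr1 was 0.0903 with a pseudocount of 0.1, 0.802 with no filter and 0.221 with no mean-variance trend, and that of Dusp1 was 0.125, 0.948 and 0.221. Dusp1 also failed after quantile normalization (limma adjusted p = 0.0506). Rescaled to TPM, Fos passed too (limma adjusted p = 0.0293), and with at least 1 FPKM required in all 4 libraries Junb passed (limma adjusted p = 0.0292), a filter that removed Fos and Dusp1.

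Few rows differed as much in both genotypes. Counting by the smaller of the KO and WT differences, 3 rows reached the value of Egr1, namely Egr1 itself, Cldn5 and Slc38a5. The value of Dusp1 was reached by 8 rows, that of Fos by 12 and that of Junb by 243. Cldn5, a tight junction protein of brain endothelium, was at 26.3 FPKM in KO 2 and 26.8 FPKM in WT 2, and was listed at 0.035 FPKM in KO 1 and 0 in WT 1. Slc38a5, an amino acid transporter, was at 15.5 FPKM in KO 2 and 16.97 FPKM in WT 2, and was listed at 0 in KO 1 and WT 1. Both were named after their values were seen.

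**Figure D3:**
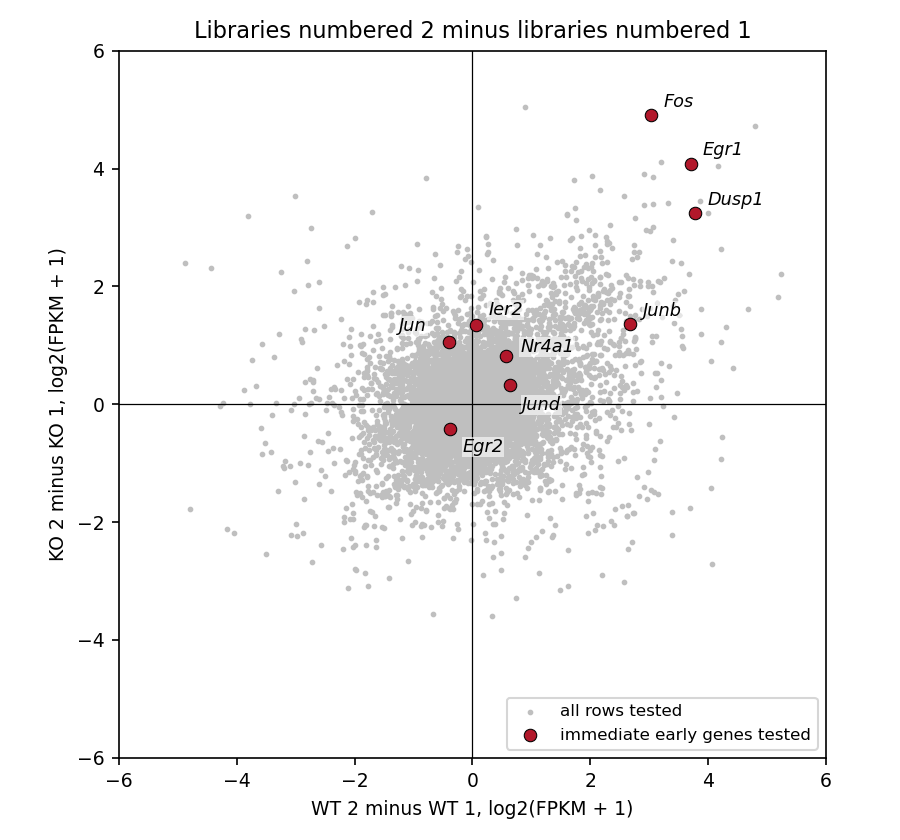
Difference in log2(FPKM + 1) between libraries numbered 2 and 1 in KO (vertical) against the same in WT (horizontal), with a grey point for each of the 10754 rows tested and a red point for each of the 9 tested members. Egr1, Dusp1 and Fos lie at the upper right margin of the cloud, and Egr2 (-0.42 in KO and -0.38 in WT) lies within it.

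Markers of other cell types moved with the library number, and their part in the differences above was not tested. The immediate early genes summed to 376 FPKM in KO 2 and 285 FPKM in WT 2, against 102 FPKM in KO 1 and 119 FPKM in WT 1. Over all rows tested, both libraries numbered 2 were above both numbered 1 for 22.3% and below for 17.2%. Of the 12 endothelial and mural markers, 9 were above and 0 below, and of the 6 that passed the filter 6 were above and 0 below. Besides Cldn5, the pericyte genes Rgs5 (9.38 and 9.90 FPKM in KO 2 and WT 2, against 0 and 0.45 FPKM in KO 1 and WT 1) and Vtn (28.5 and 35.3, against 7.34 and 0 FPKM) were of this kind. Pecam1, another defining endothelial gene, was at or near 0 in every library, and of the 12 markers 1 was listed at 0 in KO 2 and 2 in WT 2, against 6 in KO 1 and 9 in WT 1. A value of 0 in this table can be a failed estimate.

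The 11 microglia and macrophage markers summed to 146 FPKM in KO 2 and 133 FPKM in WT 2, against 56.7 FPKM in KO 1 and 61.5 FPKM in WT 1. For 8 of them, C1qb among them, both libraries numbered 2 were above both numbered 1, and for 0 below. Among the 8 markers that passed the filter, 7 were above and 0 below, beside 22.3% above and 17.2% below over all rows tested. The pan-leukocyte gene Ptprc stayed at or under 0.066 FPKM. The 9 astrocyte markers did not separate the numbers by their sum (332 and 279 FPKM in KO 2 and WT 2, against 262 and 320 FPKM in KO 1 and WT 1), to which S100b, which oligodendrocytes also express, added most in WT 1. Of the single markers, 7 of 9 were above in both libraries numbered 2, such as the gap junction gene Gja1 (25.9 and 37.9 FPKM, against 3.35 and 1.10 FPKM), and S100b was below. Among the 6 astrocyte markers that passed the filter, 5 were above and 1 below. The 13 neuron markers summed to 54.5 and 39.9 FPKM in KO 2 and WT 2. In KO 1 and WT 1 they summed to 31.7 and 25.7 FPKM. Most of that difference lay in Tubb3, at 24.6 and 24.2 FPKM in KO 2 and WT 2, against 9.55 and 10.4 FPKM. Of all 13 neuron markers, 4 were above and 0 below. Among the 5 that passed the filter, 1 (Tubb3) was above, 0 were below and 4 overlapped. The vesicular glutamate transporter Slc17a6 was at or near 0 throughout.

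Markers of the lineage had lower sums in the libraries numbered 2. The 13 oligodendrocyte markers summed to 2451 and 2611 FPKM in KO 2 and WT 2, against 2821 and 2831 FPKM in KO 1 and WT 1, and the 7 precursor markers to 727 and 739 FPKM, against 1080 and 898 FPKM. Gene by gene they were mixed. Both libraries numbered 2 were below for 4 oligodendrocyte markers and above for 1 (Ermn, listed at 0 in KO 1 and WT 1), while 8 overlapped. They were below for 2 precursor markers (C1ql1 and Gpr17, which carried the sum), while 5 overlapped. Over all rows tested 22.3% were above and 17.2% below. Between the genotypes the same lists did separate in part. Both KO libraries were below both WT libraries for 6 of 13 oligodendrocyte markers and above for 2 (median log2 fold change -0.94), and above for 5 of 7 precursor markers and below for 0 (median 0.45). Over all rows tested, KO was above for 16.6% and below for 18.3%. The endothelial and mural sum was 9.37 to 76.2 FPKM in KO and 0.454 to 84.6 FPKM in WT. The microglia and macrophage sum was 56.7 to 146 FPKM in KO and 61.5 to 133 FPKM in WT, and the ranges of both lists overlapped between KO and WT. In bulk RNA a larger share of a cell type and more RNA per cell cannot be told apart.

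**Figure D4:**
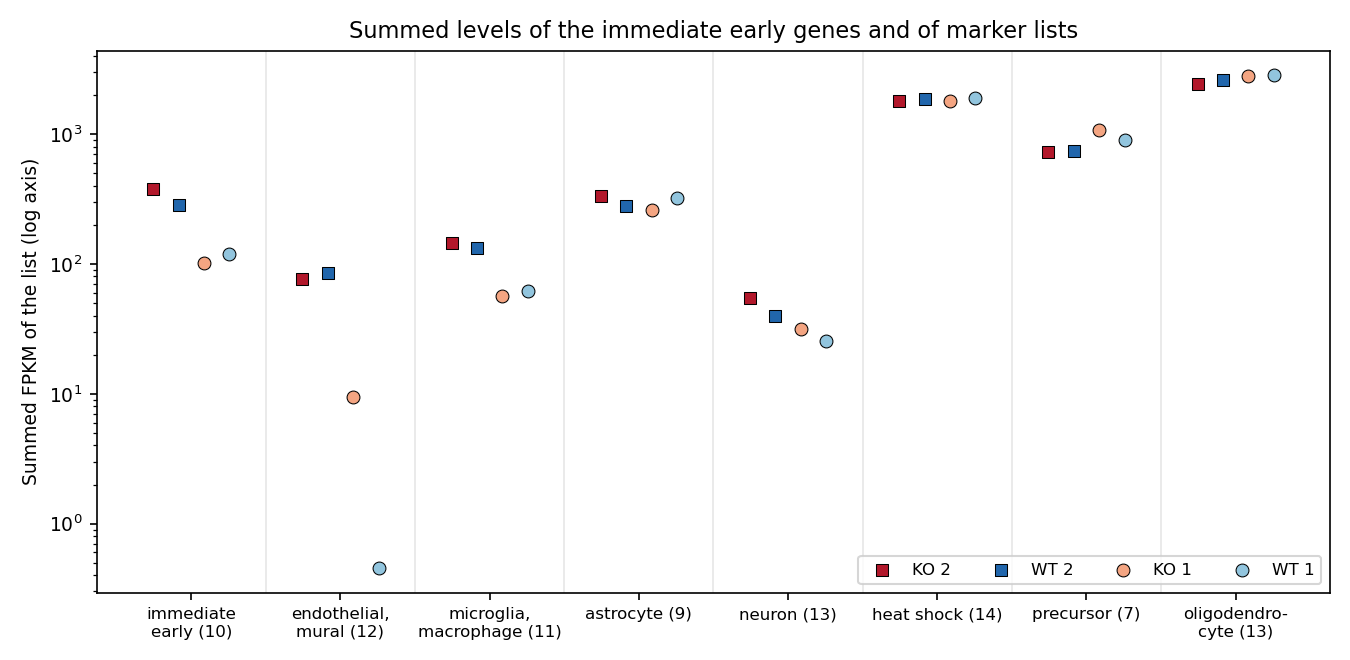
Summed FPKM (log axis) of the 10 immediate early genes, of 6 marker lists and of 14 heat shock genes in KO 2, WT 2, KO 1 and WT 1, with list sizes in brackets. Immediate early, endothelial and mural, microglial and neuronal sums are higher in both libraries numbered 2, the neuronal sum mostly through Tubb3. The heat shock sums lie between 1802 and 1892 FPKM.

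The wider immediate early and rapid response programme was read from a list of 40 further genes, of which 26 passed the filter. Among these 26, both libraries numbered 2 were above both numbered 1 for 12 and below for 2, beside 22.3% above and 17.2% below over all rows tested, and 0 passed by limma in either comparison. The other 14 genes, several of them listed at 0, were too low to test. Cyr61, a secreted matrix protein induced by serum, was at 42.5 and 58.3 FPKM in KO 2 and WT 2, against 33.0 and 17.8 FPKM in KO 1 and WT 1. Dusp6, an ERK phosphatase, was at 33.1 and 40.3 FPKM, against 17.7 and 5.52 FPKM, and Ppp1r15a, a stress-induced phosphatase subunit, at 27.1 and 28.4 FPKM, against 18.5 and 16.2 FPKM. Nfkbia, an inhibitor of NF-kappaB, Zfp36l1, an mRNA decay factor, and Rhob, a small GTPase, overlapped between the numbers. Nfkbia was at 32.4 and 41.4 FPKM in KO 2 and WT 2, against 20.3 and 34.2 FPKM in KO 1 and WT 1. Zfp36l1 was at 32.6 and 36.4 FPKM, against 34.6 and 19.6 FPKM, and Rhob at 17.7 and 23.0 FPKM, against 22.1 and 25.9 FPKM. Between the genotypes 4 of the 26 tested genes lay above in KO and 4 below, shares no larger than the 16.6% and 18.3% over all rows. Their median KO minus WT difference was 0.13, with 0.039 within number 1 and -0.038 within number 2.

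The kinases that signal to these promoters, with the factors bound there, formed a list of 29 genes, of which 15 were tested. Both libraries numbered 2 were above both numbered 1 for 2 of the 15 and below for 5, beside 22.3% above and 17.2% below over all rows tested. By limma 0 of the 15 passed in either comparison. The kinase gene Mapk3 (ERK1) was at 25.0 and 37.6 FPKM in KO 2 and WT 2, against 51.3 and 57.7 FPKM in KO 1 and WT 1. The ERK activators Map2k1 (16.9 and 16.6 FPKM, against 15.5 and 10.9 FPKM) and Map2k2 (15.9 and 19.4 FPKM, against 19.9 and 23.2 FPKM) went opposite ways. Elk1, an ERK substrate at serum response elements, was at 5.003 and 2.19 FPKM, against 6.19 and 5.97 FPKM. Map2k4, an activator of JNK, was at 4.01 and 3.01 FPKM, against 3.72 and 2.23 FPKM.

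Among 13 further bZIP genes that can pair with Fos or Jun proteins, 6 were tested and 0 passed by limma. Atf4, the factor of the integrated stress response, was the one above 10 FPKM, at 28.4 and 37.0 FPKM in KO 2 and WT 2, against 36.2 and 38.6 FPKM in KO 1 and WT 1. Jdp2, a repressor of AP-1 sites, was at 1.92 and 3.45 FPKM, against 2.26 and 0.063 FPKM, and Atf2, a partner of Jun, at 1.04 and 2.11 FPKM, against 1.34 and 1.75 FPKM. Batf3 was at 7.14 FPKM in KO 2 and was listed at 0 in the other 3 libraries. Heat shock genes, another rapid response, went both ways, as did all rows tested (22.3% above and 17.2% below). Of the 14 tested heat shock genes, 4 had both libraries numbered 2 above both numbered 1 and 3 had both below. Their median difference was -0.019 between the numbers and -0.023 between the genotypes, with -0.064 within number 1 and -0.022 within number 2, and 0 passed by limma. Hspa8, the constitutive chaperone, was at 729 and 726 FPKM in KO 2 and WT 2, against 754 and 723 FPKM in KO 1 and WT 1. Hsp90ab1 (356 and 377 FPKM, against 387 and 402 FPKM), Hspa5 (231 and 251 FPKM, against 238 and 250.4 FPKM), Hspe1 (184 and 220.4 FPKM, against 172 and 240.1 FPKM), Hsp90aa1 (163 and 139 FPKM, against 111 and 127 FPKM) and Hspd1 (64.7 and 68.8 FPKM, against 76.5 and 64.6 FPKM) likewise differed by less than 1 on the log2 scale, and these abundant chaperones set the sum of the list. Low members differed more. Hspa1a, a strongly inducible form, was at 0.547 and 0.016 FPKM, against 3.48 and 2.96 FPKM. Its copy Hspa1b, with which it may share reads, differed by -0.99. That value averages 0.24 in KO and -2.22 in WT, and Hspa1b overlapped between the numbers. The small chaperone Hspb1 differed by 1.69 and the co-chaperone Bag3 by 1.28.

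The rows whose pattern over the 4 libraries was closest to the mean of the 9 tested members were Ska3, Aurka, Smc4, Ccna2, Cyba, Vim, Stmn1 and Syce2. Likeness was the Euclidean distance between log2(FPKM + 1) profiles after the mean of each row was subtracted, for rows of at least 5 FPKM on average, and it ran over these 8 from 0.155 to 0.233. The members themselves lay 1.01 (Nr4a1) to 2.81 (Fos) from their own mean. The 8 rows were picked for closeness, so the smaller distances follow from the choice. Stmn1, a microtubule regulator, was at 553 and 506 FPKM in KO 2 and WT 2, against 177 and 151 FPKM in KO 1 and WT 1, and Vim, an intermediate filament protein, at 65.1 and 55.1 FPKM, against 21.4 and 18.5 FPKM. Ccna2, which encodes cyclin A2, was at 43.2 and 28.4 FPKM, against 10.01 and 10.3 FPKM, and Aurka, a mitotic kinase, at 18.7 and 14.5 FPKM, against 3.77 and 3.91 FPKM.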

How the data were processed

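RNA was measured in 4 libraries of sorted oligodendrocytes. The authors' deposited values are FPKM, 1 column per library. TopHat (version not recorded) and the build mm10 appear in the submitters' processing notes. How FPKM were estimated, with which annotation, strand option and filters, is not stated in these sources, so antisense or overlapping genes may share reads. Reads per FPKM were estimated from the most frequent value of FPKM times length among low genes with a single GENCODE M21 transcript, which is approximate.

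The FPKM were analysed as log2(FPKM + 1). The 10754 rows with at least 1 FPKM in at least 2 libraries entered limma 3.58.1 under R 4.3.3 (empirical Bayes with a mean-variance trend, two-sided, Benjamini-Hochberg adjustment over all rows, threshold 0.05), for genotype without a block, and for library number beside genotype. The first fit leaves 2 residual degrees of freedom and the second 1 before the variances are moderated. The fits were tested on simulated data. Lists are described by counts and medians, with no test. The genes of the list and the other lists were chosen with earlier results of these data known. All members were named, with the 6 most abundant genes of each wider list (4 for bZIP genes), Zfp488, and the 8 closest profiles, skipping unnamed genes, pseudogenes and small RNAs; 1 gene that this rule names is not reported here. Genes named beyond that rule, among them markers, Hspa1a, Hspa1b, Hspb1, Bag3, Cldn5 and Slc38a5, were chosen after their values were seen. Alternatives were the pseudocount, the filter, TPM, quantile normalization, no trend, a replicate block, and leaving out each library. The within-number values were added after seeing the data.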

Additional observations from a re-analysis of the deposited data

How the results depend on the processing

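With no filter on low values 52 of 35869 rows passed between the genotypes, and 0 passed under every other alternative that gives a test. Between library numbers 41 rows passed, against 0 with a pseudocount of 0.1, 0 with no filter, 0 with no mean-variance trend, 217 with at least 1 FPKM in all 4 libraries, 123 after rescaling to TPM and 20 after quantile normalization. The cause was not tested, beyond the smaller or larger number of rows tested under the filters. The members' median KO minus WT difference ran from -0.42 to 0.95 when single libraries were left out, and their median difference between numbers from 0.63 to 1.34. Left out 1 library at a time, the KO minus WT difference of Fos ran from -3.74 to 1.16, of Jun from -0.11 to 0.95, of Junb from -0.20 to 2.48, of Jund from -0.41 to 0.22, of Egr1 from -1.56 to 2.52, of Egr2 from -0.33 to 0.097, of Ier2 from -0.66 to 0.67, of Dusp1 from -1.03 to 2.74 and of Nr4a1 from -0.42 to 0.39. All 9 thus changed sign. The difference of Jun between numbers was 1.06 in KO alone and -0.40 in WT alone. Rescaling to TPM turned Jund to 0.0024 and Nr4a1 to 0.068, and a pseudocount of 0.1 turned Ier2 to -0.00020. Within number 1, Jun was at -0.31, Jund at 0.059 and Ier2 at -0.64, and within number 2, Nr4a1 was at 0.11. With the library number as a replicate block the medians and differences are the same by construction (members' median 0.0038), and 0 rows passed, with 1025 at an unadjusted p under 0.05. The labels do not say that a number pairs the samples. The number differences in WT and KO correlated at 0.289 across rows, which are not independent.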
